A study of Mus musculus with 2 samples.

Results

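The enzymes and readers of cytosine methylation described here are 9 genes, chosen by gene symbol from 55536 Ensembl genes. They are the methyltransferases Dnmt1, Dnmt3a and Dnmt3b, the 5-methylcytosine dioxygenases Tet1, Tet2 and Tet3, and the methyl-DNA readers Uhrf1, Uhrf2 and Mbd2. All 9 were present in both libraries, and between them they have 83 annotated transcripts. Their levels were measured by total RNA-seq in primary neutrophils from the spleen of adult male mice aged 65 days. The animals were B6CASTF1/J, with C57BL/6 as the maternal and CAST/EiJ as the paternal strain of these F1 hybrids. There was 1 group with 2 libraries, each from 300 ng of RNA with added ERCC spike-ins, and no treatment, mutant or other cell type was available for comparison. Both libraries carry 1 donor identifier, so separate animals are not established and the spread and p-values below may reflect technical variation. Reads of these hybrids were quantified against mm10, and the effect of the CAST/EiJ alleles on the values was not tested.

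Dnmt1 copies existing methylation onto the daughter strand after DNA replication, and Uhrf1 recruits it to hemimethylated CG sites. Dnmt3a and Dnmt3b set methylation at unmethylated sites. TET proteins oxidise 5-methylcytosine, the first step of its removal, and Mbd2 binds methylated CG and recruits the NuRD repressor complex. Neutrophils develop from dividing bone marrow progenitors and no longer divide once mature.

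Gene counts totalled 18310083 in replicate 1 and 18043017 in replicate 2. The signal recognition particle RNA genes Rn7s1 and Rn7s2 took 43.8% of the TPM in replicate 1 and 31.6% in replicate 2, so TPM, a level per length that sums to 1 fixed total in each library, left less for all other genes in replicate 1. All 14 neutrophil markers were at 10 TPM or more, with a summed level of 40612 and 80803 TPM. Summed levels of other lineages were 16.9 and 44.7 TPM for 8 B and plasma cell genes, 0.7 and 0.95 TPM for 8 T and NK cell genes, and 61.8 and 126 TPM for 8 erythroid and platelet genes. The 10 monocyte, macrophage and dendritic cell genes summed to 294 and 438 TPM, of which Ly6c2 alone gave 253 and 372 TPM. Cd68 was at 25.17 and 45.72 TPM, Adgre1 at 7.61 and 10.59 TPM, Vcam1 at 6.67 and 8.02 TPM and Flt3 at 1.04 and 1.51 TPM. C1qa, C1qb and C1qc reached at most 0.2 TPM, Siglech at most 0.15 TPM, and Xcr1 was at 0. In bulk RNA, fewer cells of a type and less RNA per cell cannot be told apart.

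The members fell into a well-expressed set and a low pair. Mbd2 was highest, at 65.5 ± 14.9 TPM (SD, n = 2), followed by Tet2 at 43.9 ± 2.86 TPM, Uhrf1 at 36.0 ± 6.54 TPM and Dnmt1 at 34.0 ± 4.42 TPM. Tet3 lay at 24.9 ± 2.58 TPM, Uhrf2 at 13.8 ± 0.382 TPM and Dnmt3a at 9.07 ± 1.75 TPM. Dnmt3b, at 0.8 ± 0.113 TPM, and Tet1, at 0.68 ± 0.198 TPM, were the lowest. A level of at least 1 TPM in both libraries was reached by 7 of the 9 genes, and at least 10 TPM by 6. Of the 8 neighbouring pairs in this order, Uhrf1 and Dnmt1 overlapped between libraries, as did Dnmt3b and Tet1, and the ranges of the remaining neighbours did not overlap.

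**Figure D1:**
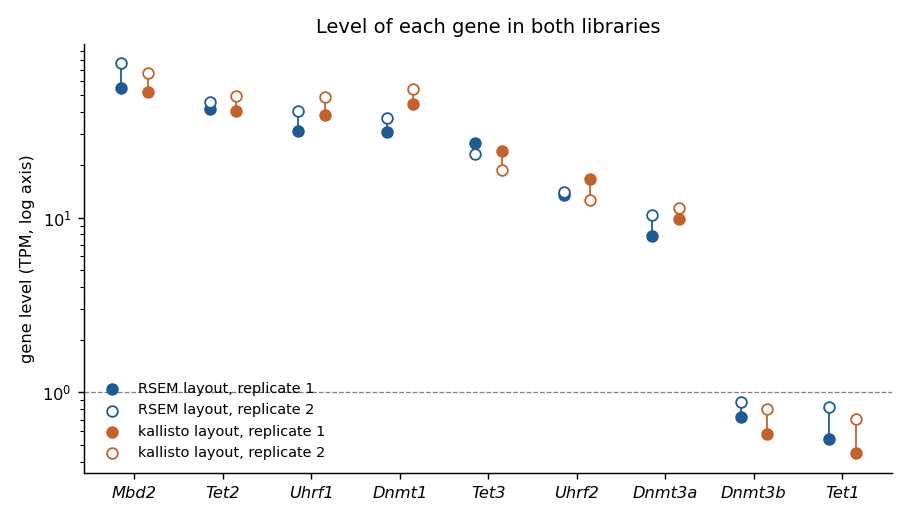
Level of each gene in TPM on a log axis, with replicate 1 as filled and replicate 2 as open circles, in the RSEM-layout table (blue) and the kallisto-layout table (orange). The dashed line marks 1 TPM, and Dnmt3b and Tet1 lie below it in all 4 readings.

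Among the methyltransferases, the maintenance enzyme Dnmt1 (ENSMUSG00000004099.16, chr9:20907209-20959888, minus strand, mm10) made up most of the RNA. It was at 30.85 TPM in replicate 1 and 37.1 TPM in replicate 2, with 3191 and 3392 counts, higher than 86.2% of expressed protein-coding genes. Of the summed methyltransferase TPM, Dnmt1 held 78.3% and 76.8%. A second quantification of the same reads, in the layout kallisto writes, placed Dnmt1 higher, at 44.8 and 54.5 TPM, above Tet2 in both libraries. Most of that gap sat in Dnmt1-206, a 693-nt retained-intron model given 15.9 and 13.7 TPM by kallisto and 3.08 and 2.34 TPM by RSEM. Complete protein-coding transcripts are those with neither the start nor the end of the coding region annotated as missing. With these alone, both tables gave nearly the same level: 29.6 ± 4.74 TPM by RSEM and 29.2 ± 4.74 TPM by kallisto.

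Dnmt1 has complete coding transcripts at 3 groups of start sites, and the data did not settle how they divide. Dnmt1-202, from the farthest upstream start (20959888), had 27.3% and 24.7% of the complete coding TPM by kallisto but 0% and 1.58% by RSEM. Dnmt1-201, 6909 nt downstream and encoding 1620 residues, had 39.9% and 51.7% by kallisto and 66% and 64.4% by RSEM. It led in both RSEM readings. A last group, Dnmt1-203 and Dnmt1-207, starts 7265 nt downstream of the first and had 32.9% and 23.6% by kallisto and 34% and 34% by RSEM. The 250 bases before the first and the second start are shown because the starts differ in CG content. They lie at chr9:20959889-20960138 and chr9:20952980-20953229 on the minus strand (RefSeq, GRCm38.p6), written 5′ to 3′ with each CG in capitals.
Dnmt1 first start: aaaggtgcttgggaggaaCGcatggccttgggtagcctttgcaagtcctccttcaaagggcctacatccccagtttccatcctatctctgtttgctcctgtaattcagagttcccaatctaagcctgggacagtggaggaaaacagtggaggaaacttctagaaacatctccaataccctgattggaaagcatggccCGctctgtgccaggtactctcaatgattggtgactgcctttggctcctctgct
Dnmt1 second start: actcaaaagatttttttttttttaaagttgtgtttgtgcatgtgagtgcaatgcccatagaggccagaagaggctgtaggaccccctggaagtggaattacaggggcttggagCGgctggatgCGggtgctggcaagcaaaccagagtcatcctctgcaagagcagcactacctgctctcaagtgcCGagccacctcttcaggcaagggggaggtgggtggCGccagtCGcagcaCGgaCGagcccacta
The first window has 2 CG in its 250 bases and the second 7. Counted with the 50 bases after the start, the 300-base windows of the 3 groups held 2, 12 and 33 CG, in that order, beside a median of 7 over 32851 RefSeq promoters. Of those promoters 14.1%, 60.4% and 91.4% had fewer CG, respectively. In the window of the last group, annotated Dnmt1 exons cover 166 of the 250 bases before the start.

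Dnmt3a (ENSMUSG00000020661.15, chr12:3806007-3914443, plus strand), a de novo methyltransferase that is often mutated in human clonal haematopoiesis, was at 7.84 and 10.31 TPM with 568 and 563 counts. It lay 3.73-fold below Dnmt1, a log2 difference of -1.90 ± 0.09 (SD over 2 libraries). Complete coding transcripts held 54% and 41.8% of its RSEM TPM, and incomplete models 35.8% and 53.9%. By RSEM counts the shares were 87.5% and 81% for complete coding transcripts and 8.36% and 14.6% for incomplete models. Counted by complete coding transcripts, Dnmt3a was at 4.23 and 4.31 TPM and lay 6.75-fold below Dnmt1.

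Dnmt3a has a long form of 908 residues and a short form of 689 residues that starts 84698 nt downstream, inside the gene, and both were read. The long form, Dnmt3a-201 with Dnmt3a-218, had 38.1% and 47.7% of the complete coding TPM by kallisto and 44% and 49.7% by RSEM. The short form had the remaining 61.9% and 52.3% by kallisto and 56% and 50.3% by RSEM, nearly all of it as Dnmt3a-205. By counts the order was opposite, with 414.8 and 416.1 estimated counts on the long form and 163.3 and 110.1 on the short form by kallisto. Dnmt3a-205 is 2328 nt long and Dnmt3a-218 is 8737 nt, a difference larger than that of their coding parts, so the share does not measure start choice alone. The sequence before each start shows the contrast in CG, at chr12:3806730-3806979 and chr12:3891494-3891743 on the plus strand (RefSeq, GRCm38.p6).
Dnmt3a long form: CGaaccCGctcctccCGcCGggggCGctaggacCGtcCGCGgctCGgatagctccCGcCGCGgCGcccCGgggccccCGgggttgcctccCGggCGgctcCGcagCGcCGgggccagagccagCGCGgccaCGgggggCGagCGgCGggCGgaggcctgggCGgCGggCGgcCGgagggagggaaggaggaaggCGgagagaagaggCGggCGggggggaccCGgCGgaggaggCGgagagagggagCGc
Dnmt3a short form: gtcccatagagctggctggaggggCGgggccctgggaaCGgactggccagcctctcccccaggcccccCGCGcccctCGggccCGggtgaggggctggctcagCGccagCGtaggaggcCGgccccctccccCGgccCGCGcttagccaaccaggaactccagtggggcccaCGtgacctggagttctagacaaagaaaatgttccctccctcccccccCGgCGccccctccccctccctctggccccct
Before the long form's start there were 38 CG in 250 bases, and before the short form's start 15. The 300-base windows held 46 and 18 CG, more than 98.4% and 70.3% of promoters, so both were above the median of 7.

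Dnmt3b (ENSMUSG00000027478.15, chr2:153649450-153687730, plus strand), the other de novo enzyme, was at 0.72 and 0.88 TPM from 55 and 53 counts. It lay 37.9-fold below Dnmt1 (log2 -5.24 ± 0.01) and 10.1-fold below Dnmt3a (log2 -3.34 ± 0.09). With so few counts, isoforms were read coarsely. Even so, the same transcript led in both tables and both libraries, Dnmt3b-206, with 82.2% and 67.7% of the gene's TPM by kallisto and 56.9% and 55.1% by RSEM. It encodes 776 residues, against 860 in the longest annotated form, which Dnmt3b-201 and Dnmt3b-207 share. In replicate 1 that form was read as Dnmt3b-207 by kallisto (9.897 counts, 17.8% of the TPM) and as Dnmt3b-201 by RSEM (19.01 counts, 29.2%), and in replicate 2 both transcripts had 0 counts in both tables.

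Uhrf1 (ENSMUSG00000001228.14, chr17:56303321-56323486, plus strand), the reader that pairs with Dnmt1 at replication forks, was at nearly the level of its partner. It had 31.38 and 40.63 TPM, with 1583 and 1642.87 expected counts. The log2 difference of Dnmt1 from Uhrf1 was -0.08 ± 0.08 by RSEM, 0.18 ± 0.04 by kallisto and 0.47 ± 0.07 with complete coding transcripts alone, so the order of this pair depended on what was counted. Short models took part of the Uhrf1 level: Uhrf1-207, an incomplete model of 529 nt, had 12.6% and 22.3% of the RSEM TPM, and the 441-nt retained-intron model Uhrf1-205 had 15.6% and 12.2%. These shares rested on 37.13 and 72.17 RSEM counts for Uhrf1-207 and 36.4 and 31.37 for Uhrf1-205.

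Uhrf1 transcripts start at 2 groups of sites 992 nt apart, which encode the same pair of protein lengths. By kallisto the first group took 18 and 22 TPM and the second under 1 estimated count in either library. By RSEM the second group had 29% of the complete coding TPM in replicate 1 and 6.3% in replicate 2. The division therefore differed between tables and, by RSEM, between libraries. The sequences before both starts, at chr17:56303087-56303336 and chr17:56304063-56304312 on the plus strand (RefSeq, GRCm38.p6), are shown for their different CG content.
Uhrf1 first start: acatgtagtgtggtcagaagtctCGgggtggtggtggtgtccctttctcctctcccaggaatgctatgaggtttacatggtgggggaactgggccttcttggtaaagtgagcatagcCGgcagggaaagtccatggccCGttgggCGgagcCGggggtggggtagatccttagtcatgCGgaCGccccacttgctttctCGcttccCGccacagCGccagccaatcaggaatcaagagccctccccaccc
Uhrf1 second start: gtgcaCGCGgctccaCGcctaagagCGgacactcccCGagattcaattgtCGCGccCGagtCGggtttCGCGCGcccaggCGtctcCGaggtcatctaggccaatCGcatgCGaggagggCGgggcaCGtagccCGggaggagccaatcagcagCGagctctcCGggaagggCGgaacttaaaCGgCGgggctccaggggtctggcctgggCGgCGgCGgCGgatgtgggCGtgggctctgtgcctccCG
They hold 10 and 30 CG in 250 bases. The second window also contains TTTCGCGC, a motif of the type bound by E2F factors of the cell cycle, 185 bases before the start. A search for TTTCGCGC, TTTGGCGC, TTTCCCGC and TTTGCCGC on both strands, chosen after the sequences had been seen, found at least 1 of them in 2.26% of the 32851 promoters and TTTCGCGC in 0.323%. Among the 8 members with a promoter entry only Dnmt1 and Uhrf1 had a match. Dnmt1 had TTTCGCGC on the opposite strand, 219 bases before the start of Dnmt1-203, and TTTGGCGC 33 bases after it. Annotated Dnmt1 exons cover 166 of the 250 bases before that start, and both matches lie downstream of the start of Dnmt1-201 (20952979). The stretches around the TTTCGCGC matches, with the motif or its reverse complement in capitals, lie at chr9:20952825-20952852 and chr17:56304118-56304145.
Dnmt1 motif: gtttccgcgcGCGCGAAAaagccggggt
Uhrf1 motif: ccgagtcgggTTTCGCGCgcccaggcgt
These matches describe letters only, and no binding was measured.

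Uhrf2 (ENSMUSG00000024817.13, chr19:30030513-30093722, plus strand), a paralogue of Uhrf1 that also binds 5-hydroxymethylcytosine, was at 13.53 and 14.07 TPM. It lay 2.58-fold below Uhrf1, a log2 difference of -1.37 ± 0.22. Of its 9 annotated transcripts 8 are retained-intron models, and these held 58.2% and 54.4% of its TPM by RSEM and 65% and 40.7% by kallisto. By counts they held 42.6% and 40.1% by RSEM and 39.1% and 29.7% by kallisto. Its single complete coding transcript, Uhrf2-201, led in every reading, at 5.65 and 6.41 TPM by RSEM. Compared by complete coding transcripts, Uhrf2 lay 3.49-fold below Uhrf1.

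The TET family was carried by Tet2 and Tet3, and which of them came first depended on the transcripts counted. Tet2 (ENSMUSG00000040943.12, chr3:133463679-133545139, minus strand), a frequent target of mutation in myeloid disease, was at 41.83 and 45.88 TPM with 3193 and 2790 counts. Tet3 (ENSMUSG00000034832.15, chr6:83362373-83459084, minus strand) was at 26.68 and 23.03 TPM with 3602 and 2916 counts. Tet2 was thus higher per length while Tet3 had more counts in both libraries. The log2 difference of Tet3 from Tet2 was -0.82 ± 0.24 at the gene level. Counted by complete coding transcripts alone, Tet3 had 18.6 and 18.5 TPM and Tet2 10.4 and 11.3 TPM, which put Tet3 1.7-fold above Tet2 (log2 0.77 ± 0.08). The kallisto table gave 0.69 ± 0.05 for the same comparison. This way of counting was chosen after the data had been seen.

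**Figure D2:**
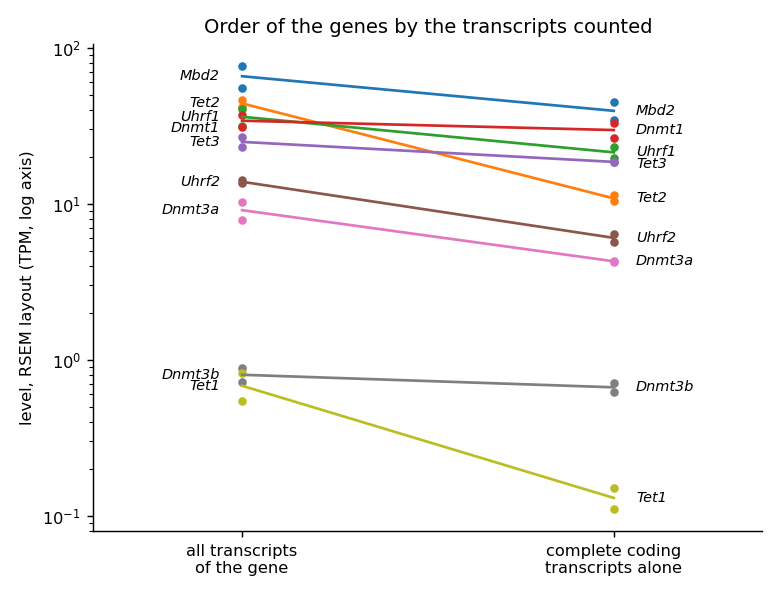
Level in TPM by RSEM on a log axis, for all transcripts of a gene (left) and for complete coding transcripts alone (right), where points are the 2 libraries and lines join their means. Tet2 drops from 43.9 to 10.8 TPM and falls below Tet3, Uhrf1 and Dnmt1.

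Much of the gene-level TPM of Tet2 lay in short and intron-retaining models. Its complete coding transcripts held 24.9% and 24.5% of the RSEM TPM, although they held 64.7% and 68.1% of the counts. Retained-intron models had 34.3% and 31.4% of the TPM. Tet2-202, a processed transcript of 484 nt, reached 7.88 and 9.25 TPM from 66 and 66 counts, and Tet2-205, an incomplete model of 423 nt, reached 9.17 and 10.9 TPM from 64.6 and 65.72 counts. Both begin near the 5′ end of the gene, as the complete transcripts do. The complete transcripts Tet2-201 and Tet2-204 encode 1912 and 1920 residues. RSEM gave essentially all complete coding TPM to Tet2-201, while kallisto gave it 4.21 and 7.57 TPM and Tet2-204 5.51 and 3.18 TPM.

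The Tet2 promoter had the most CG of the 13 windows of the members. Its 300-base window held 57 CG, and 99.8% of promoters held fewer. The 250 bases before the start (chr3:133544391-133544640, minus strand, RefSeq, GRCm38.p6) are shown with their 51 CG in capitals.
Tet2 start: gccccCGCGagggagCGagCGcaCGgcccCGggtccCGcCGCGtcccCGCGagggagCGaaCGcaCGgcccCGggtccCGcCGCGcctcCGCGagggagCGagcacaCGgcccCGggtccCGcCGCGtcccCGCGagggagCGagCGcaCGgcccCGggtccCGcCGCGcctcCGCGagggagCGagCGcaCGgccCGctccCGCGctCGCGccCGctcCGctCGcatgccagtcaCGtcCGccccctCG
Of the 13 windows, 12 held more than the median of 7. The exception was the first start of Dnmt1 printed above.

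Tet3 has a long form, Tet3-203, of 1803 residues, and a short form, Tet3-202, of 1668 residues that starts 14717 nt downstream. The long form carries an N-terminal CXXC zinc finger, a domain that binds unmethylated CG. Its share of the complete coding TPM was 54% and 53.8% by kallisto and 54.7% and 55.6% by RSEM. The short form had the remaining 46% and 46.2% by kallisto and 45.3% and 44.4% by RSEM. Of the 4 genes drawn with several starts, Tet3 had the smallest spread between tables and libraries. The transcript of the long form is 5944 nt and that of the short form 10904 nt, and the counts ran the other way: 1295 and 1116 for the long and 1984 and 1648 for the short form by RSEM. The share of each start alone was therefore not measured. A gene annotated inside Tet3 on its strand, 5430434F05Rik, held 105 and 62 counts of its own.

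**Figure D3:**
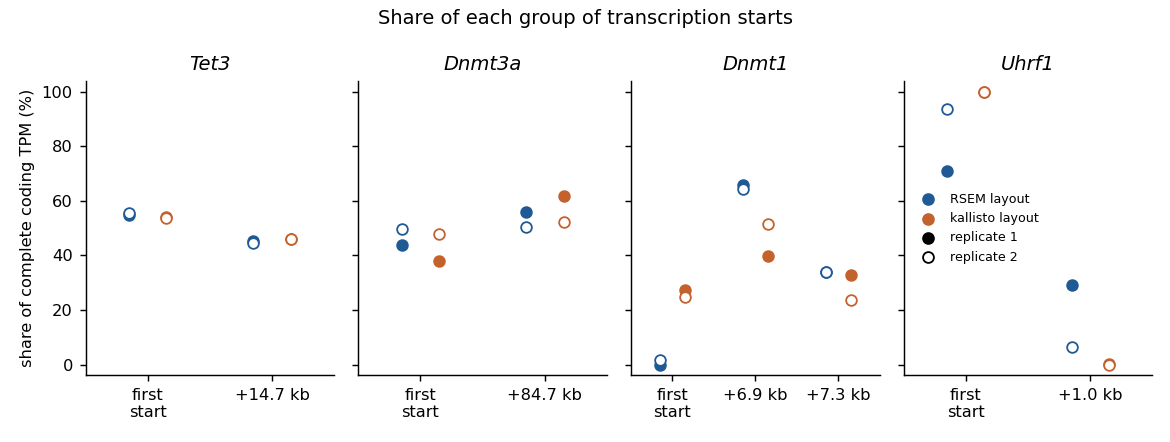
Share of a gene's complete coding TPM (percent) in each group of transcription starts, labelled by distance from the first, with RSEM in blue, kallisto in orange, replicate 1 filled and replicate 2 open. Tet3 readings coincide near 54% and 46%, while Dnmt1 and Uhrf1 readings separate by table.

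Tet1 (ENSMUSG00000047146.17, chr10:62804570-62908996, minus strand), known for its role in pluripotent cells, was at 0.54 and 0.82 TPM from 59 and 46 counts. It lay 57.2-fold below Tet2 and 32.4-fold below Tet3, with log2 differences of 5.84 ± 0.28 (Tet2 minus Tet1) and 5.02 ± 0.52 (Tet3 minus Tet1). Its share of the TET TPM was 0.782% and 1.18%. The processed transcript Tet1-202 held 50.9% and 80.7% of the TPM by RSEM and 45.6% and 73.2% by kallisto, and complete coding transcripts were at 0.15 and 0.11 TPM by RSEM. By counts the order was opposite, as complete coding transcripts held 81.5% and 60.2% of the RSEM counts, and Tet1-202 rested on 8.23 and 17.4 counts. Tet2 and Tet3 lay 47.7-fold and 81.3-fold above Tet1 on the complete coding scale.

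Mbd2 (ENSMUSG00000024513.16, chr18:70568189-70626131, plus strand), the methyl-CG reader, was the highest member in each library, at 54.97 and 76.01 TPM, and stood above 92.9% of expressed protein-coding genes. Its counts were 1529 and 1741. Mbd2-201, encoding 414 residues, led in every reading with 57.9% and 55.8% of the RSEM TPM. The 494-nt retained-intron model Mbd2-204 held 36.4% and 39.9% of the TPM by RSEM and 30.2% and 24.2% by kallisto. By counts, retained-intron models held 11.4% and 12.7% by RSEM and 7.06% and 4.66% by kallisto. Mbd2 remained the highest member on the complete coding scale, at 34.1 and 44.5 TPM. The shorter protein of 249 residues, from Mbd2-202, had 2.25 and 2.11 TPM.

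**Figure D4:**
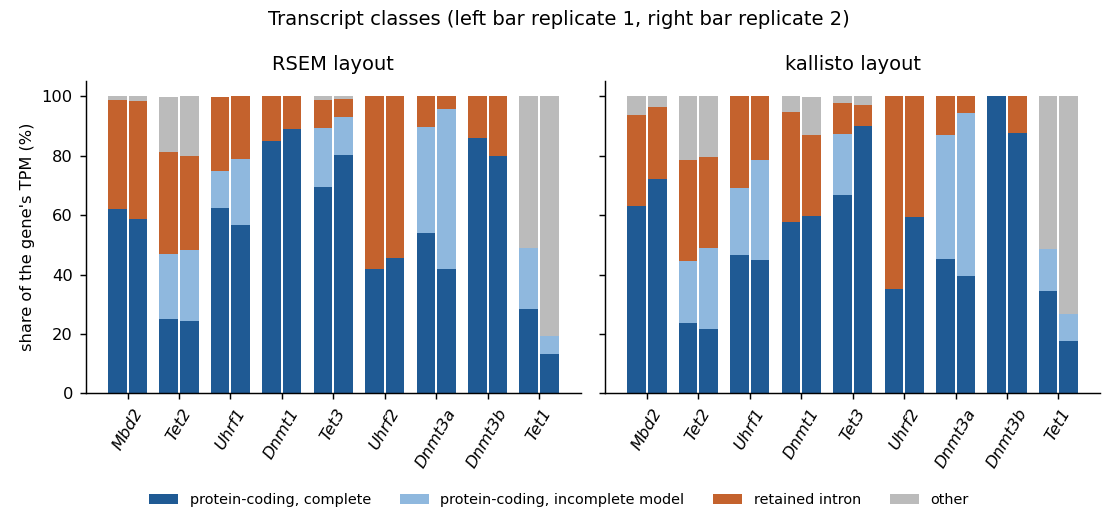
Share of each gene's TPM (percent) in complete coding, incomplete coding, retained-intron and other annotated transcripts, by RSEM (left) and kallisto (right), with replicate 1 as the left bar of each pair. Complete coding transcripts hold the smallest shares in Tet2 and Tet1 by RSEM, while Dnmt1 differs between tables, with 85% and 88.8% by RSEM and 57.8% and 59.8% by kallisto.

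At the gene level, 0 of the 7 members with a mean of 1 TPM or more differed over 2-fold between tables in both libraries. That share was 13.2% over the 13328 genes compared and 4.19% over the 10370 protein-coding ones. The same leading transcript was read in both tables and both libraries for 5 of 9 members (Dnmt3b, Tet1, Tet3, Uhrf2 and Mbd2). For Dnmt1, Dnmt3a, Tet2 and Uhrf1 it was not settled. Of 9 annotated genes whose spans overlap a member, 6 were at 0 counts in both libraries, among them the antisense genes Dnmt3aos, Dnmt3bos and Gm42567, with Mir7081, Gm26479 and Gm48353. The other 3 all overlap Tet3: 5430434F05Rik, given above, B230319C09Rik with 2 and 0 counts, and Mir6374 with 3 and 0 counts. Whether counting used strand is not given in the sources used here.

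The libraries were then compared with each other, which asks whether a member's counts differ beyond counting error and says nothing of conditions. An exact binomial test called 3 of the 9 members at an adjusted p under 0.05, where 32.1% of all 15118 genes tested were called. Tet3 had a log2 ratio of replicate 1 over replicate 2 of 0.32 (adjusted p = 7.46e-18, exact binomial test) and Tet2 of 0.21 (adjusted p = 1.73e-07). Mbd2 was higher in replicate 2, at -0.17 (adjusted p = 0.00356, exact binomial test). These count ratios use TMM scaling. Dnmt1 (-0.07), Uhrf1 (-0.04), Dnmt3a (0.03), Dnmt3b (0.07), Uhrf2 (0.13) and Tet1 (0.37) were not called. None of the 9 reached 2-fold, while 5.88% of all genes were called at that size. The median absolute log2 ratio was 0.13 over the members and 0.24 over all genes tested. The genes tested reach down to 10 counts over both libraries together, where counting error is larger. Members were not set beside genes of similar counts, so the medians are not like for like.

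**Figure D5:**
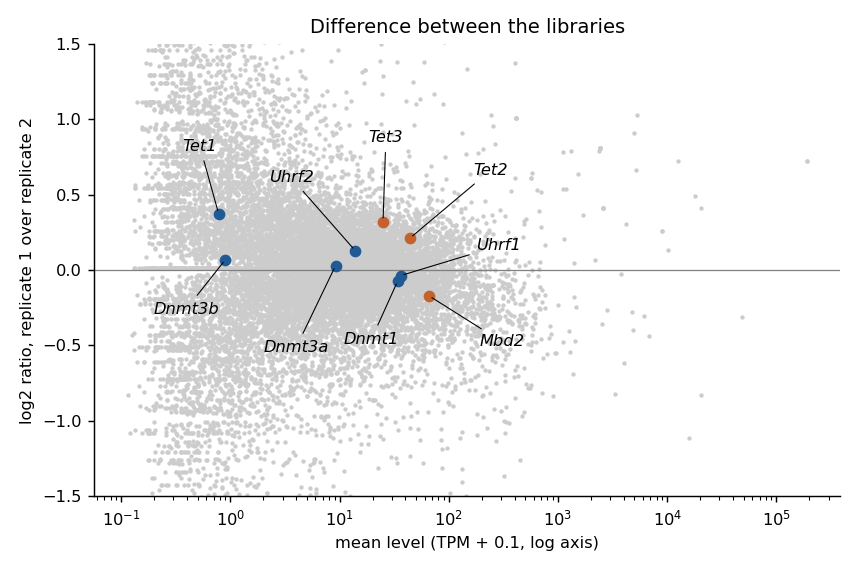
Log2 ratio of counts, replicate 1 over replicate 2, against mean level (TPM + 0.1, log axis) for the genes tested, with called members in orange and the other members in blue. All 9 members lie within 0.37 of 0, and 681 genes lie beyond the plotted range of ratios.

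Of the called members, Tet3 lay above that median over all genes, and Tet2 and Mbd2 lay below it. With a common dispersion estimated from these same 2 libraries (a biological coefficient of variation of 0.164), which takes in the differences under test, edgeR's exact negative binomial test called 0 of the 9 members, 0 at an unadjusted p under 0.05, and 1.63% of all genes. Scaling to the ERCC spike-ins shifted the median of all genes to -0.74. Tet3 (-0.42) and Tet2 (-0.53) then turned direction, as did Tet1, Uhrf2, Dnmt3a and Dnmt3b. Such scaling shifts the log2 ratio of each gene by the same amount. The distances of Tet3 and Tet2 above that median, 0.32 and 0.21, therefore could not change. Tet2 was lower in replicate 1 by TPM and higher by counts, both with TMM scaling (0.21) and with total count scaling (0.17). By deposited FPKM, which like TPM is a level per length, Tet2 was at 49.63 and 47.11, higher in replicate 1. The cause of the change in direction between TPM and counts was not tested. With TPM rescaled to protein-coding genes alone, Tet3 was at 81.3 and 50.7, Tet2 at 127 and 101, Uhrf2 at 41.2 and 31, Dnmt1 at 94 and 81.7 and Uhrf1 at 95.6 and 89.5. These 5 were higher in replicate 1, as were Dnmt3a (23.9 and 22.7) and Dnmt3b (2.19 and 1.94), while Tet1 (1.65 and 1.81) was higher in replicate 2. Mbd2, called higher in replicate 2 by counts, was at 167 in both libraries on this scale.

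Partners of methylation were expressed along with the members. The lists that follow were chosen with earlier results of these data known, and Tdg, Hells, Trim28 and Ogt are named for their roles with values seen. Of 12 partners of maintenance and de novo methylation, 10 were at 1 TPM or more in both libraries. Pcna, the replication clamp that binds Dnmt1, was highest at 63.29 and 92.56 TPM, and Dppa3, an oocyte factor that displaces Uhrf1, was at 0. Hells, a remodeller needed for methylation of repeats, was at 12.42 and 13.04 TPM. Of the 10 tested, 2 were higher in replicate 1 and 1 in replicate 2, where 15.0% and 17.0% of all genes were called. Pcna was the 1 higher in replicate 2, and Trim28 and Cdca7 were the 2 higher in replicate 1.

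Of 22 TET partners and base excision repair genes, 15 were at 1 TPM or more in both libraries. Gadd45a, a stress protein linked to demethylation, was highest by the mean, at 83.6 and 105.65 TPM, and Cxxc4, a CXXC protein that binds Tet2, was at 0. Ogt, which attaches N-acetylglucosamine and binds TET proteins, was at 86.57 and 86.0 TPM, above Gadd45a in replicate 1. Tdg, the glycosylase that removes oxidised 5-methylcytosine, was at 19.7 and 24.31 TPM. Of 19 tested, 3 were called higher in each replicate, beside 15.0% of all genes called higher in replicate 1 and 17.0% in replicate 2. Cxxc5, a relative of Cxxc4, was the only one with a called difference of 2-fold or more, with 10 and 46 counts and a log2 ratio of -2.13 (adjusted p = 1.07e-05, exact binomial test). It was also the only one called by edgeR's negative binomial test (adjusted p = 0.0165). Of the 8 B and plasma cell genes 7 were also called higher in replicate 2, with summed levels of 16.9 and 44.7 TPM, and Ms4a1 was not (18 and 21 counts). So were all 14 neutrophil genes and 4 of the 8 erythroid and platelet genes, of which 3 were called higher in replicate 1. These calls are from the exact binomial test. The negative binomial test called 5 of the B and plasma cell genes, 0 of the neutrophil genes and 1 of the erythroid and platelet genes, beside 1.63% of all genes. The part of these cell types in the Cxxc5 difference was not tested.

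Relatives of the readers and the complex that Mbd2 recruits were read in both libraries. Among 9 other genes of the MBD and methyl-CpG binding families, 8 were at 1 TPM or more, from Mbd6 at 71.9 ± 3.3 TPM to Zbtb4 at 0.35 ± 0.0566 TPM. A place in this list does not mean that a protein binds methylated CG, and binding was not measured. Of the 9, 4 were called higher in replicate 1 and 0 in replicate 2, beside 15.0% and 17.0% of all genes. All 13 NuRD subunits were at 1 TPM or more, from the remodeller Chd4 at 78.7 ± 4.12 TPM to its paralogue Chd3 at 4.52 ± 0.509 TPM, and 1 was higher in replicate 1 and 3 in replicate 2. Of 16 methionine cycle genes, which make and recycle the methyl donor S-adenosylmethionine, 13 were at 1 TPM or more. The highest was Mat2a, the S-adenosylmethionine synthetase of most tissues, at 33.5 ± 1.83 TPM, and the liver enzymes Mat1a and Bhmt were at 0. Of 14 tested, 1 was called in each direction. The negative binomial test called 0 genes in these 3 lists, beside 1.63% of all genes, so few calls were to be found in lists of this size.

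Dnmt1 and Uhrf1 are known to rise in dividing cells, so the genes of S phase and mitosis were read beside them. All 16 were at 10 TPM or more in both libraries, from Top2a, the topoisomerase of dividing cells, at 92.5 ± 7.04 TPM to the mitotic cyclin Ccnb1 at 19.5 ± 4.07 TPM. Their sum was 567 and 706 TPM. Of the 16, 1 was called higher in replicate 1 and 6 in replicate 2, beside 15.0% and 17.0% of all genes. Uhrf1 was not called by TMM scaling. Neither was Dnmt1 (-0.07, adjusted p = 0.116, exact binomial test), but it was called higher in replicate 2 by DESeq2 size factors (adjusted p = 0.045), total count scaling (0.00898) and kallisto counts (0.0254). Stem and progenitor genes summed to 23.9 and 31.2 TPM, of which Myb gave 13.69 and 20.11 TPM. Elane and Mpo, granule genes of early neutrophil precursors, were at 159 ± 30.5 and 229 ± 50 TPM. The part that dividing precursors have in the levels of Dnmt1 and Uhrf1 was not tested.

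The genes closest in level over both libraries were found for the highest member of each role among 11648 protein-coding genes, by Euclidean distance of log2(TPM + 0.1) over 2 libraries. For Dnmt1 they were N4bp2l2, Atp6v1a and Ociad1, at distances of 0.010, 0.011 and 0.015, for Tet2 Rnh1, Ccm2 and Bcl2l11, at 0.019, 0.046 and 0.048, and for Mbd2 Ap2m1, Alas1 and Rassf5, at 0.028, 0.033 and 0.038. Within a distance of 0.1 lay 76, 44 and 27 genes, so with 2 libraries this likeness does not single out any gene.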

How the data were processed

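Total RNA-seq of 2 libraries of 1 group was analysed from the authors' deposited tables (mm10, GENCODE M21, per the files' accompanying notes). The gene table and 1 transcript table, in RSEM layout, hold expected counts, TPM and FPKM that the authors derived from transcriptome alignments. The other transcript table, in kallisto layout, holds estimated counts and TPM that the authors derived from the FASTQ files. The aligner is not given in the sources used here. Levels are deposited TPM, as mean and SD of n = 2, and log2 differences add 0.1. Deposited FPKM served as an alternative.

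Counts were rounded and compared between the libraries with an exact two-sided binomial test (scipy 1.17.1) given TMM effective library sizes (edgeR 4.0.16), in the 15118 genes whose counts in the 2 libraries summed to 10 or more, with Benjamini-Hochberg adjustment over all of them at 0.05. Log2 ratios add 0.5 to each count. The test covers counting error only: without molecular identifiers, reads are not independent molecules. The test was checked on counts simulated with counting error alone, so that check does not cover any spread beyond it. Alternatives were DESeq2 1.42.0 size factors, total and spike-in scaling, other count minimums, kallisto counts and a negative binomial test. Start groups join transcripts within 200 nt. Members are all named. Of each list the highest, the lowest and genes called at 2-fold or more are named, with others as stated. Members and lists were chosen with earlier results of these data known. A planned search for protein motifs was not run.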

Additional observations from a re-analysis of the deposited data

How the results depend on the processing

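The count of 3 members called between the libraries became 8, all higher in replicate 2, with ERCC spike-in scaling. That scaling called 11350 of the 15118 genes tested, beside 4850 in the main setting, so the 8 are not particular to the members. The count became 0 with the negative binomial test, which called 247 genes. It was 3 or 4 under the other scalings, count minimums and kallisto counts, where 4515 to 6003 genes were called. Under ERCC scaling the median of all genes was -0.74, and the log2 ratios that turned direction were Dnmt3a -0.71, Dnmt3b -0.67, Tet1 -0.37, Tet2 -0.53, Tet3 -0.42 and Uhrf2 -0.61. Without being called, Dnmt3a also turned to -0.01 with total count scaling and -0.00 by kallisto counts, and Dnmt3b to -0.10 by kallisto counts. Dnmt1 was called by DESeq2 size factors (adjusted p = 0.045, exact binomial test), total scaling (0.00898), kallisto counts (0.0254) and ERCC scaling. Dnmt1 minus Uhrf1 turned to 0.18 by kallisto and 0.47 by complete coding transcripts, and Tet3 minus Tet2 turned to 0.77 by the latter. Tet2 is lower there by construction, since its short and intron-retaining models are left out. The cause of the other changes was not tested. Members whose leading transcript was the same in both libraries numbered 5 by kallisto and 8 by RSEM. Members at 1 TPM or more numbered 9 when TPM was taken over protein-coding genes.

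Leaving out either replicate left 7 members at 1 TPM or more, 8 of 8 differences in direction, 0 members apart between tables, and 7 with the same leading transcript in both tables. The counts of members at 1 TPM and of differences in direction could not fall, because the main counts already ask for both libraries. The comparison between libraries cannot be made with 1 replicate left out. No paired analysis was possible because there is 1 group. Depth limits Tet1 and Dnmt3b most, with 46 to 59 counts each.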
